A study of Mus musculus with 10 samples.

Results

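Sterol and fatty acid synthesis was followed here through 34 genes of the SREBP pathway, 23 of the sterol branch and 11 of the fatty acid branch, chosen by name from the deposited expression table. All 34 were found among its 21898 genes, and all 34 were among the 11403 genes with enough reads to test. The study cultured CD8+ T cells selected from the spleens of wild-type (WT) mice for 5 days in medium with 10 mM NAC, the antioxidant and cysteine source N-acetylcysteine, or in normal medium without it. Bulk RNA sequencing gave 5 NAC libraries and 5 control libraries, numbered 1 to 5 in each group, all from WT cells and each made from 1.3 µg of total RNA, with 13298108 to 17706439 counted reads. Separate animals or cultures behind the 5 libraries of a group are not stated in the labels. The p-values therefore measure the spread among these libraries, and that spread may be technical.

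Sterol regulatory element-binding proteins (SREBPs) are transcription factors that wait in the endoplasmic reticulum as inactive precursors. When sterols are scarce the escort protein SCAP carries them to the Golgi for cleavage, and INSIG proteins hold SCAP back when sterols are plentiful. SREBP-2, encoded by Srebf2, is best known for driving the cholesterol pathway, and SREBP-1, encoded by Srebf1, for driving fatty acid synthesis and desaturation. Activated CD8+ T cells are known to raise both pathways as they grow and divide.

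The labelled cell type was checked against its markers first, because libraries 1 and 2 stood apart from libraries 3 to 5 in both groups. The 4 T cell and CD8 markers Cd3e, Cd3d, Cd8a and Cd8b1 were present in every library. Levels are in CPM, reads scaled to the library's total over the tested genes times its TMM factor. The 4 markers summed to 1569 to 1652 CPM in NAC and 1211 to 1233 CPM in control libraries 3 to 5. In libraries 1 and 2 they summed to 932 to 979 CPM in NAC and 643 to 652 CPM in control libraries. All 4 helper and regulatory T cell markers had reads in every library, and their sum was 31.2 to 34.9 CPM in NAC and 20.4 to 23.1 CPM in control libraries 3 to 5, against 604 to 659 CPM in NAC and 625 to 643 CPM in control libraries 1 and 2. Cd4 itself was at 0.766 to 2.76 CPM in libraries 3 to 5 of both groups and at 465 to 521 CPM in libraries 1 and 2 of both groups, which goes against the CD8+ label in those 4 libraries. Of the 5 B cell markers Pax5 stayed at or below 0.229 CPM and Cd79b carried most of a sum of 10.7 to 13.4 CPM in NAC and 2.32 to 8.82 CPM in control libraries. Of the 6 myeloid markers Cd68 carried most of a sum of 11.0 to 14.5 CPM in NAC and 6.73 to 15.9 CPM in control libraries, with Csf1r at 0 in 8 of the 10 libraries. The 4 natural killer cell markers summed to at most 0.383 CPM. The first principal component of all genes, with 50.8% of the variance, separated the library sets, and the second, with 31.8%, separated NAC from control libraries. Results below are therefore given over all libraries and by set; what part the Cd4-expressing cells or anything else that goes with the library number had in them was not tested.

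Over all 10 libraries the 34 genes did not move together with NAC. By edgeR's quasi-likelihood test at an adjusted p under 0.05, 1 of the 34 genes rose (Scd2) and none fell, where the adjusted p is Benjamini-Hochberg's over all genes tested. That is 2.94% of the genes, against 11.6% of all genes tested (6.69% higher and 4.88% lower). At an unadjusted p under 0.05 there were 6 (against 30% of all genes tested), and the DESeq2 Wald test called 3 (against 20.1%). The median log2 change, NAC over control, was 0.10 in the sterol branch and 0.10 in the fatty acid branch, against 0.012 over all genes tested, and it came out positive for 15 of 23 and 7 of 11 genes. Scd2 was also the one gene whose NAC and control libraries did not overlap, where 16.4% of all genes tested were apart, 8.62% with NAC above and 7.75% with NAC below. The edgeR fit over all libraries holds no term for library set, so differences between the sets count as spread in it. With such a term 15 of the 34 genes passed (44.1%, against 36.4% of all genes tested). The low share above is therefore no result about the pathway.

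Within the library sets more genes differed, when NAC and control libraries of the same set were compared in one fit of the 4 combinations of group and set. In libraries 3 to 5 NAC raised 6 of the 34 genes and lowered 7 (38.2%, against 29% of all genes tested, 15% higher and 14% lower). In libraries 1 and 2 it raised 14 and lowered 9 (67.6%, against 60.5% of all genes tested, 32.2% higher and 28.3% lower). Shares this near to those of all genes are no result about the pathway, and what follows turns on which genes moved in which direction. Of the 34 genes, 10 changed in the same direction in both sets: Pmvk, Tm7sf2, Dhcr7 and Scd2 rose, and Idi1, Sqle, Hsd17b7, Acaca, Fasn and Acsl4 fell. Hmgcs1 alone passed the test in opposite directions. NAC and control libraries did not overlap for 20 genes in libraries 3 to 5, 11 with NAC above and 9 with NAC below (against 54.6% of all genes tested, 27.1% above and 27.5% below). The same held for 28 genes in libraries 1 and 2, 16 above and 12 below (against 74.1%, 39.3% above and 34.8% below). The change differed between the sets, by the test of the difference itself, for 17 genes (50% of them, against 41.9% of all genes tested): it was lower in libraries 3 to 5 for 10 (against 21.9% of all genes tested) and higher there for 7 (against 20%). These differences are given as the log2 change in libraries 3 to 5 minus that in libraries 1 and 2. The fit of the 4 combinations takes each gene's spread from all 10 libraries. Its SE and p-values for 1 set therefore also rest on the other set. For genes that passed in it, fitting each set alone gave higher adjusted p-values in libraries 1 and 2 (Fads2 0.0153, against 0.00436). In libraries 3 to 5 it gave lower ones (Hsd17b7 4.85e-05, against 0.0422).

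When the library number was taken as a pair (NAC 1 with control 1, and so on), the same 10 genes that changed in one direction in both sets passed over all libraries, 4 higher (against 11.5% of all genes tested) and 6 lower (against 8.22%), or 29.4% in all, against 19.8%. With a term for library set in place of the pairs 15 passed, those 10 with Insig2, Acat2, Mvk, Nsdhl and Scd1, against 36.4% of all genes tested. These tests rest on the same libraries and are not independent of each other. Same-numbered NAC and control libraries were hardly more alike than other numbers of the same set (r 0.48 to 0.6 against 0.47 to 0.58, over genes, of deviations from the group means). So the pairs may stand for the library set alone. In bulk samples fewer cells of a type and less RNA per cell cannot be told apart.

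**Figure D1:**
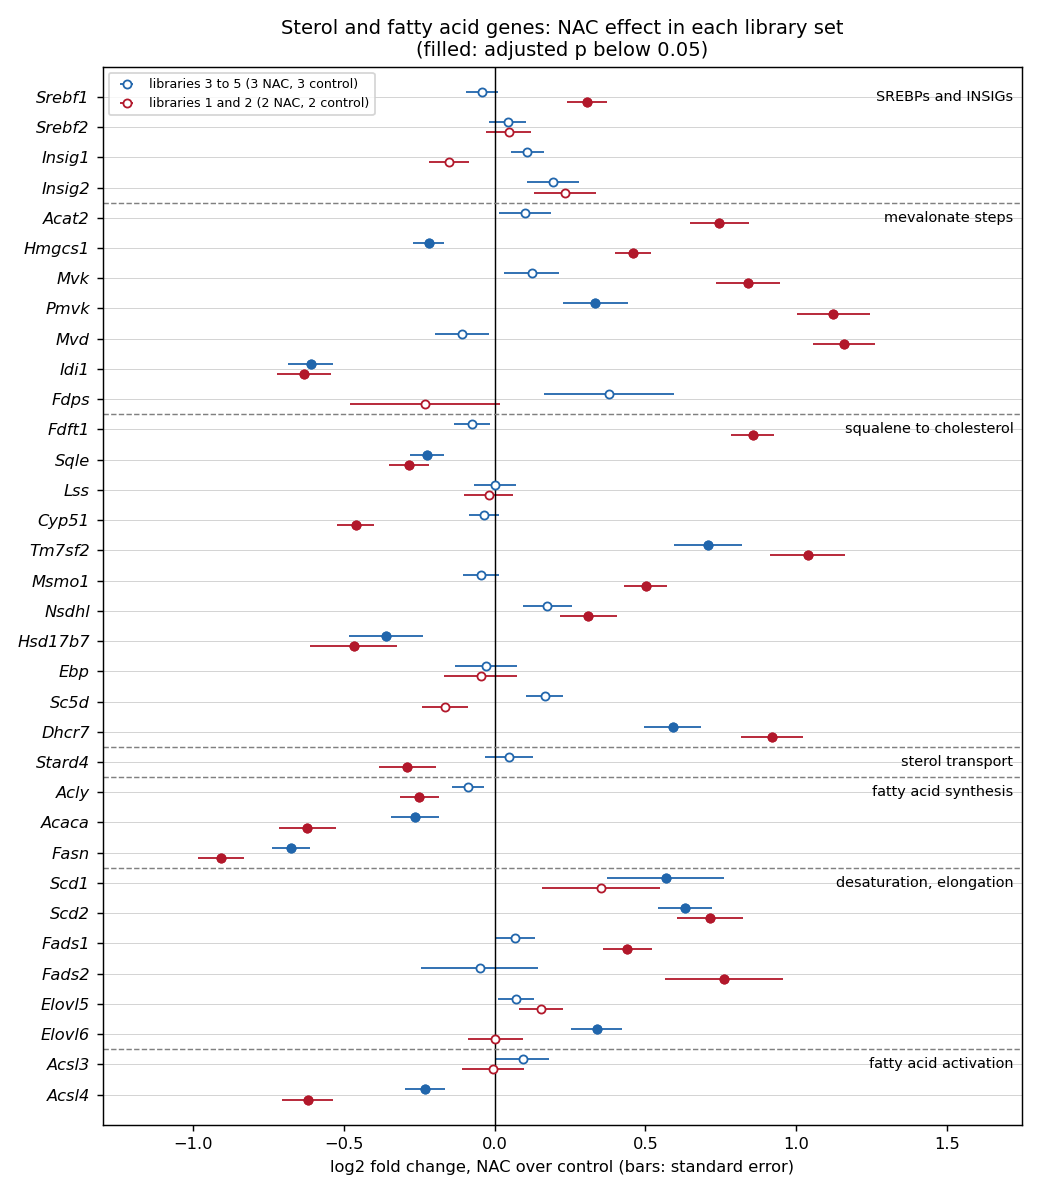
Log2 change, NAC over control, of each of the 34 genes in libraries 3 to 5 and in libraries 1 and 2, in the order of the pathway; bars are standard errors from the fit of the 4 combinations of group and library set, and filled points passed an adjusted p under 0.05. Scd2, Dhcr7 and Tm7sf2 lie to the right of 0 and Fasn and Idi1 to the left in both sets, whereas Mvd and Fdft1 lie above 0.8 in libraries 1 and 2 and below 0 in libraries 3 to 5.

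Promoter letters of 6 genes are shown because these genes stand for the patterns that follow: Mvd and Hmgcs1 rose in one library set only, Idi1 and Fasn fell in both, and Dhcr7 and Tm7sf2 rose in both. Each is the 250 bases before the transcript start, 5′ to 3′, from RefSeq on GRCm38.p6, with capitals marking CCAAT on either strand (ATTGG on the minus strand; overlapping matches run together), the box bound by the SREBP partner NF-Y, and CACNCCAC on either strand, a form of the sterol regulatory element.
Mvd (chr8:122443423-122443672, minus strand): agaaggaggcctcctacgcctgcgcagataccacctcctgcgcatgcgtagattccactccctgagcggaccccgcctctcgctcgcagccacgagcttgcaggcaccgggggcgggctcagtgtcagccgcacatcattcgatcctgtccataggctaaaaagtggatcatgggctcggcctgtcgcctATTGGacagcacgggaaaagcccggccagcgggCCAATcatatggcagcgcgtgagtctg
Hmgcs1 (chr13:119690101-119690350, plus strand): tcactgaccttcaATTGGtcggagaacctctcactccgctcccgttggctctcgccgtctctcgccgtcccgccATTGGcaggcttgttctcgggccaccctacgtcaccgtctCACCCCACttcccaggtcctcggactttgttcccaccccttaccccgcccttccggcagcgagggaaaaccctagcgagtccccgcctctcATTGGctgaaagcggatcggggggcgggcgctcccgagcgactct
Idi1 (chr13:8885356-8885605, plus strand): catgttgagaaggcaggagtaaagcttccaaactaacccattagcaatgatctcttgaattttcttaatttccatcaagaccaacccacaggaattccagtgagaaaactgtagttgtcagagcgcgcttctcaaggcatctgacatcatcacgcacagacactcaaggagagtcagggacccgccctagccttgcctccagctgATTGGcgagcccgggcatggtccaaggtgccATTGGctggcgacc
Fasn (chr11:120824548-120824797, minus strand): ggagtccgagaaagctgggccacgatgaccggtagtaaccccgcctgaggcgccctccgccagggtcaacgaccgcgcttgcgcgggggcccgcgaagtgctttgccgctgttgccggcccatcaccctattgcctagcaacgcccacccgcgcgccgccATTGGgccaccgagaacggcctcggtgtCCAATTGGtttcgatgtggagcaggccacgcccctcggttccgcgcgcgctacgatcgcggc
Dhcr7 (chr7:143829964-143830213, plus strand): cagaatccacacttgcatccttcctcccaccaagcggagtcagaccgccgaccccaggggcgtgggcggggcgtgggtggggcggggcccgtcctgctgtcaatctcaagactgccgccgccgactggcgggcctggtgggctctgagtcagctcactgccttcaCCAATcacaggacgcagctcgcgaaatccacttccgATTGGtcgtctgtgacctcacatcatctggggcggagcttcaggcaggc
Tm7sf2 (chr19:6067851-6068100, minus strand): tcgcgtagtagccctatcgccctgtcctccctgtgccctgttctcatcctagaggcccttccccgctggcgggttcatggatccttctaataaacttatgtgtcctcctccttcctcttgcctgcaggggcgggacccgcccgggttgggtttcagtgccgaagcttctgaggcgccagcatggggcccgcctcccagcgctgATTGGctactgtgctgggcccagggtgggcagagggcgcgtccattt

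For Dhcr7 1 of 3 listed promoters is shown. RefSeq promoters were matched for 27 of the 34 genes, 34 promoters in all, and 8 spellings of sterol, NF-Y and E-box motifs were searched on both strands. CCAAT stood in 22 of the 34 promoters (64.7%), against 33.8% of all 32851 promoters of the same length. CACNCCAC stood in 4 of them (11.8%, in Acat2, Acsl4, Hmgcs1 and Insig1), against 5.29%, and CACGTG, an E-box, in 5 (14.7%), against 6.02%. The stricter spellings of the sterol element were rarer: TCACNCCAC and CACCCCAC, which both hold CACNCCAC, stood in 1 and 2 of the 34 promoters, against 1.05% and 2.58% of all, and the sterol element extended to 10 letters stood in 0, against 0.192%. The variants TCACNCNAC (2 promoters, 5.88%, against 2.26%) and TCACCTGAG (1 promoter, 2.94%, against 0.329%) were searched as well. In Hmgcs1 the CACNCCAC match begins 136 bases before the start and 3 CCAAT boxes begin 237, 176 and 45 bases before it. In Fasn 3 CCAAT boxes begin 90, 62 and 59 bases before the start, and in Mvd 2 begin 60 and 27 bases before it. Tm7sf2, which rose in both sets, and Idi1 and Fasn, which fell in both, all hold CCAAT in their only listed promoter. Dhcr7, which also rose in both, holds CCAAT in a promoter chosen by its matches. The box stood in 21 of the 27 genes with a matched promoter. Whether it goes with the direction of change was not tested. A match is a description of these letters, not a bound site.

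The regulators at the head of the pathway showed small differences. Srebf1 (chromosome 11) had 148, 159, 129.96, 126 and 132 CPM in NAC libraries 1 to 5, against 127, 121, 131, 133 and 136 CPM in control libraries 1 to 5. NAC libraries 1 and 2 lay above control libraries 1 and 2, while the groups overlapped in libraries 3 to 5. The change was -0.042 on the log2 scale in libraries 3 to 5 (adjusted p = 0.592) and 0.31 in libraries 1 and 2 (adjusted p = 0.0013, but 0.0826 when those libraries were fitted alone). For Srebf1 the sets differed by the test as well (log2 -0.35 ± 0.08 SE, adjusted p = 0.00568). Srebf2 (chromosome 15) had 499, 572, 390.4, 391 and 382 CPM in NAC libraries 1 to 5, against 497, 539.9, 379.6, 374 and 375 CPM in control libraries 1 to 5. Its groups overlapped over all libraries and in libraries 1 and 2. In libraries 3 to 5 NAC libraries lay slightly above control libraries, as for 27.1% of all genes tested. Neither the change over all libraries (log2 0.045 ± 0.15 SE, adjusted p = 0.871) nor that within a set passed the test.

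Insig1 (chromosome 5), which retains the SREBP escort in the endoplasmic reticulum and is itself a classical SREBP-2 target, had 107, 105, 101, 104 and 106 CPM in NAC libraries 1 to 5, against 118, 117, 97.6, 98.8 and 91.7 CPM in control libraries 1 to 5. NAC libraries lay above control libraries in libraries 3 to 5 and below them in libraries 1 and 2. Neither difference passed within its set (log2 0.11, adjusted p = 0.154 in libraries 3 to 5, and log2 -0.15, adjusted p = 0.0638 in libraries 1 and 2), although that in libraries 3 to 5 passed when those were fitted alone (adjusted p = 0.0395). The difference between the sets did pass (log2 0.26 ± 0.09 SE, adjusted p = 0.027). That difference no longer passed without NAC 4 or 5 or without control 1, 2 or 5 (adjusted p 0.0567 to 0.0797). Insig2, its homologue, ranged over 21.6 to 27.7 CPM in NAC and 20.2 to 24.7 CPM in control libraries and, of the comparisons given here, passed with a term for library set only (log2 0.21, adjusted p = 0.0423).

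The mevalonate steps, which turn acetyl-CoA into isoprenoid units, differed between the library sets in most of their genes. In libraries 3 to 5 NAC raised 1 of these 7 genes (Pmvk) and lowered 2 (Hmgcs1 and Idi1), against 15% of all genes tested higher and 14% lower. In libraries 1 and 2 it raised 5 (Acat2, Hmgcs1, Mvk, Pmvk and Mvd) and lowered 1 (Idi1), against 32.2% higher and 28.3% lower. The median log2 change of the 7 genes was 0.10 in libraries 3 to 5 and 0.74 in libraries 1 and 2, against 0.004 and 0.042 over all genes tested. By the test of the difference the change was lower in libraries 3 to 5 for 5 of the 7, against 21.9% of all genes tested.

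Mvd (chromosome 8), the decarboxylase that yields isopentenyl diphosphate, had 25.8, 29.4 and 27.9 CPM in NAC libraries 3 to 5, against 31.8, 26.8 and 31.1 CPM in control libraries 3 to 5. It had 82.01 and 73.3 CPM in NAC libraries 1 and 2, against 33.8 and 35.8 CPM in control libraries 1 and 2. The groups overlapped in libraries 3 to 5, whereas both NAC values in libraries 1 and 2 were above either control value there. The log2 change was -0.11 ± 0.09 SE in libraries 3 to 5 (adjusted p = 0.393). In libraries 1 and 2 it was 1.16 ± 0.10 SE, or 2.23-fold higher (adjusted p = 1.02e-06, and 0.000553 when fitted alone). For Mvd the log2 change differed between the sets by -1.27 ± 0.14 SE (adjusted p = 2.51e-05). Over all libraries that left 0.58, with an adjusted p of 0.26.

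Hmgcs1 (chromosome 13), the HMG-CoA synthase that commits acetyl-CoA to the pathway, had 162, 163 and 156 CPM in NAC libraries 3 to 5, against 186, 185 and 189 CPM in control libraries 3 to 5. NAC values there were below every control value. In the other set it had 378 and 366 CPM in NAC libraries 1 and 2, against 276 and 265 CPM in control libraries 1 and 2, with the NAC values above. It fell by 0.22 on the log2 scale in libraries 3 to 5 (adjusted p = 0.00625) and rose by 0.46 in libraries 1 and 2 (adjusted p = 2.99e-05). For Hmgcs1 the log2 change differed between the sets by -0.68 ± 0.08 SE (adjusted p = 4.56e-05). An annotated antisense transcript overlaps 462 of its bases, and whether the counting used strand is not given in the sources used here.

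Pmvk (chromosome 3), phosphomevalonate kinase, had 34.99, 33.5 and 38.8 CPM in NAC libraries 3 to 5, against 27.3, 29.4 and 28.4 CPM in control libraries 3 to 5. It had 123 and 94.6 CPM in NAC libraries 1 and 2, against 45.8 and 54.2 CPM in control libraries 1 and 2. NAC libraries lay above control libraries in both sets. It rose 1.26-fold in libraries 3 to 5 (log2 0.33 ± 0.11 SE, adjusted p = 0.0335, and 0.000149 when fitted alone). In libraries 1 and 2 it rose 2.18-fold (adjusted p = 5.46e-06, and 0.00139 when fitted alone). For Pmvk the log2 change differed between the sets by -0.79 ± 0.16 SE (adjusted p = 0.00201). The rise in libraries 3 to 5 no longer passed without NAC 3 or 5 or without control 3, 4 or 5 (adjusted p 0.0687 to 0.129). Over all libraries Pmvk did not pass (log2 0.81 ± 0.39 SE, adjusted p = 0.194). With the library number as a pair it did (log2 0.65 ± 0.17 SE, adjusted p = 0.0373).

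Mvk (chromosome 5), mevalonate kinase, had 28.8, 28.5, 16.5, 17.1 and 15.2 CPM in NAC libraries 1 to 5, against 16.7, 15.2, 15.2, 14.3 and 15.3 CPM in control libraries 1 to 5. Only the NAC libraries 1 and 2 stood apart, and the log2 change was 0.12 in libraries 3 to 5 (adjusted p = 0.337) and 0.84 in libraries 1 and 2 (adjusted p = 1.95e-05). For Mvk the log2 change differed between the sets by -0.72 ± 0.14 SE (adjusted p = 0.00144). Acat2 (chromosome 17), the cytosolic thiolase of the first step, had 110.1, 89.6, 37.2, 33.5 and 34.1 CPM in NAC libraries 1 to 5, against 60.6, 58.5, 31.3, 32.8 and 33.6 CPM in control libraries 1 to 5. It also rose in libraries 1 and 2 (log2 0.74 ± 0.10 SE, adjusted p = 2.68e-05) and not by the test in libraries 3 to 5 (log2 0.10, adjusted p = 0.404). For Acat2 the log2 change differed between the sets by -0.64 ± 0.13 SE (adjusted p = 0.00183). Acat2 is uncertain: its transcript shares 1477 bases at 97.7% identity with Acat3 (at most 1.87 CPM) and overlaps 445 bases of Tcp1 on the other strand (log2 -0.19 in libraries 3 to 5 and 0.033 in libraries 1 and 2).

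Idi1 (chromosome 13), the isomerase that makes dimethylallyl diphosphate, went the other way. It had 130.4, 157, 71.01, 72.2 and 76.7 CPM in NAC libraries 1 to 5, against 231, 214, 118, 111 and 107 CPM in control libraries 1 to 5. In each set the NAC values were below every control value, while NAC libraries 1 and 2 lay above control libraries 3 to 5. Idi1 fell by 0.61 ± 0.08 SE on the log2 scale in libraries 3 to 5 (adjusted p = 9.76e-05) and by 0.63 ± 0.09 SE in libraries 1 and 2 (adjusted p = 5.06e-05). The difference between the sets was 0.021 ± 0.12 SE (adjusted p = 0.901). Over all libraries it did not pass (log2 -0.62 ± 0.30 SE, adjusted p = 0.195), but did with the pairs (log2 -0.62 ± 0.08 SE, adjusted p = 0.00523). Processed pseudogenes match 684 bases of Idi1 at 100% and 681 bases at 97.7% identity, and reads could be split among them.

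Fdps, farnesyl diphosphate synthase, was at 2.95 to 3.89 CPM in NAC and 1.99 to 4.18 CPM in control libraries and passed in no comparison. Its level is uncertain: 4 processed pseudogenes and the annotated gene Gm43738 match its transcript at 96.1% to 100% identity over 605 to 1066 bases, and Gm43738 was at 0 in every NAC library and at most 0.0606 CPM in control libraries.

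From squalene to cholesterol the 11 genes went in several directions. In libraries 3 to 5 NAC raised 2 (Tm7sf2 and Dhcr7) and lowered 2 (Sqle and Hsd17b7), or 36.4% of them, against 29% of all genes tested. In libraries 1 and 2 it raised 5 (those 2 with Fdft1, Msmo1 and Nsdhl) and lowered 3 (those 2 with Cyp51), or 72.7%, against 60.5%. These shares are near those of all genes. Their median log2 change was -0.028 in libraries 3 to 5 and -0.019 in libraries 1 and 2. The 2 reductases that rose in both sets, Tm7sf2 and Dhcr7, remove double bonds of the sterol ring system, and the 2 enzymes that fell in both, Sqle and Hsd17b7, oxidise squalene and reduce a 3-keto sterol.

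Tm7sf2 (chromosome 19), a sterol reductase of the inner nuclear membrane and endoplasmic reticulum, had 12.8, 11.98 and 13.5 CPM in NAC libraries 3 to 5, against 7.74, 8.36 and 7.35 CPM in control libraries 3 to 5. It had 25.1 and 26.4 CPM in NAC libraries 1 and 2, against 11.4 and 13.6 CPM in control libraries 1 and 2. NAC values were above all control values of their set. It rose 1.63-fold in libraries 3 to 5 (log2 0.71 ± 0.11 SE, adjusted p = 0.000631) and 2.05-fold in libraries 1 and 2 (log2 1.04 ± 0.12 SE, adjusted p = 1.22e-05). The difference did not pass (log2 -0.33 ± 0.17 SE, adjusted p = 0.129). Over all libraries the change was 0.88 ± 0.28 SE with an adjusted p of 0.063, and 0.00679 with the pairs (log2 0.85). The gene overlaps 532 bases of Vps51 on the same strand, which differed by log2 0.15 in libraries 3 to 5 (adjusted p = 0.195) and 0.36 in libraries 1 and 2 (adjusted p = 0.00583).

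Dhcr7 (chromosome 7), the last enzyme of one of the routes to cholesterol, had 78.6, 85.2, 27.96, 31.5 and 27.3 CPM in NAC libraries 1 to 5, against 42.4, 44.1, 19.99, 20.7 and 16.9 CPM in control libraries 1 to 5. Its NAC values again lay above the control values of the same set, while the sets themselves lay far apart. It rose 1.51-fold in libraries 3 to 5 (log2 0.59 ± 0.09 SE, adjusted p = 0.0006) and 1.89-fold in libraries 1 and 2 (log2 0.92 ± 0.10 SE, adjusted p = 6.88e-06). For Dhcr7 the difference of -0.33 ± 0.14 SE did not pass (adjusted p = 0.0716). Over all libraries the adjusted p was 0.223 (log2 0.80 ± 0.41 SE), and 0.00499 with the pairs (log2 0.73).

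Sqle (chromosome 15), squalene epoxidase and a rate-limiting enzyme of the pathway, had 134, 137, 100.4, 104 and 106 CPM in NAC libraries 1 to 5, against 165, 165, 122, 125 and 114 CPM in control libraries 1 to 5. NAC values were below all control values of their set. It fell by 0.22 in libraries 3 to 5 (adjusted p = 0.00932, and 3.22e-05 when fitted alone) and by 0.28 in libraries 1 and 2 (adjusted p = 0.00257, but 0.0634 when fitted alone), both on the log2 scale. The first of these no longer passed without NAC 3 or without control 4 (adjusted p 0.0536 to 0.0561). Over all libraries the adjusted p was 0.252 (log2 -0.25), and 0.0435 with the pairs (log2 -0.25).

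Hsd17b7 (chromosome 1), the 3-ketosteroid reductase of sterol synthesis, had 36.2, 53.02, 32.9, 29.6 and 33.9 CPM in NAC libraries 1 to 5, against 63.3, 60.04, 45.8, 39.9 and 38.2 CPM in control libraries 1 to 5. NAC 2 lay far above the other NAC libraries, yet below control 1 and 2. The gene fell by 0.36 on the log2 scale in libraries 3 to 5 (adjusted p = 0.0422, and 4.85e-05 when fitted alone). In libraries 1 and 2 the gene fell by 0.47 (adjusted p = 0.013, but 0.0549 when fitted alone). In libraries 3 to 5 it no longer passed without NAC 3, 4 or 5 or without control 1, 2, 3, 4 or 5 or with scaling by library size alone (adjusted p 0.0603 to 0.155), and in libraries 1 and 2 without NAC 1 or without control 1 (adjusted p 0.0524 to 0.0768). Over all libraries it did not pass (log2 -0.41, adjusted p = 0.174), but did with the pairs (log2 -0.41, adjusted p = 0.037).

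**Figure D2:**
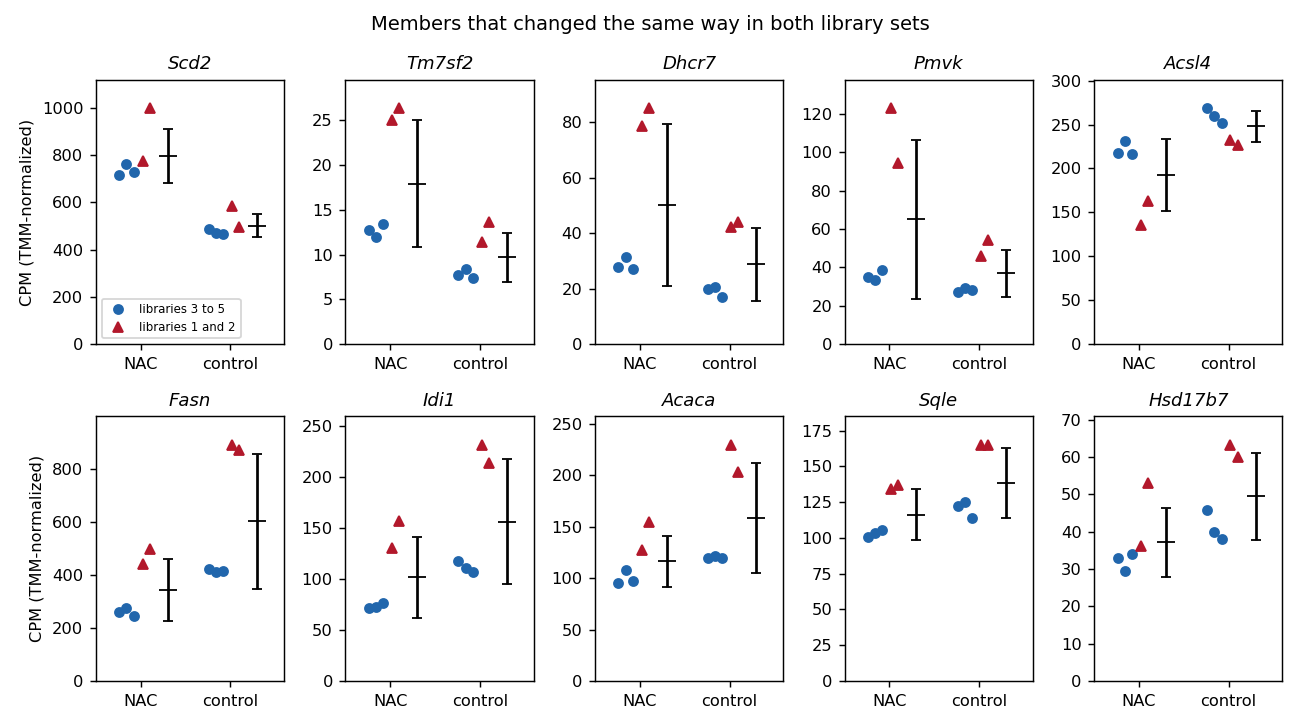
Level (CPM, linear axes that start at 0) in each library of the 10 genes that changed in the same direction in both library sets, NAC left of control; circles are libraries 3 to 5, triangles libraries 1 and 2, and bars the mean ± SD of 5 libraries. Scd2 is the gene in which every NAC library (lowest 718 CPM) lies above every control library (highest 587 CPM); for the others the groups separate only within a set.

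Fdft1 (chromosome 14), squalene synthase, which takes the first step committed to sterols, had 59.3, 57.8 and 57.6 CPM in NAC libraries 3 to 5, against 62.2, 60.5 and 61.5 CPM in control libraries 3 to 5. It had 148 and 134 CPM in NAC libraries 1 and 2, against 78.4 and 77.3 CPM in control libraries 1 and 2. NAC values were slightly below the control values in libraries 3 to 5 and well above them in libraries 1 and 2. The change was -0.076 ± 0.06 SE on the log2 scale in libraries 3 to 5 (adjusted p = 0.369). In libraries 1 and 2 it was a 1.81-fold rise (log2 0.86, adjusted p = 5.77e-07, and 0.00133 when fitted alone). For Fdft1 the log2 change differed between the sets by -0.93 ± 0.09 SE (adjusted p = 1.48e-05). Its transcript overlaps 774 bases of Ctsb on the other strand and resembles a processed pseudogene at 97.4% over 1249 bases. Ctsb rose in both sets (log2 0.32 in libraries 3 to 5 and 0.43 in libraries 1 and 2). If strand was not used, reads of the overlap cannot be assigned to either gene.

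Msmo1 (chromosome 8), a methylsterol oxidase, had 169, 158, 93.9, 94.7 and 95.3 CPM in NAC libraries 1 to 5, against 119, 112, 104, 94.3 and 94.9 CPM in control libraries 1 to 5. It rose in libraries 1 and 2 (log2 0.50, adjusted p = 5.47e-05) and its groups overlapped in libraries 3 to 5 (log2 -0.045, adjusted p = 0.611). For Msmo1 the log2 change differed between the sets by -0.55 ± 0.09 SE (adjusted p = 0.000597). Cyp51 (chromosome 5), the lanosterol demethylase of an earlier step, had 283, 272, 186, 184 and 176 CPM in NAC libraries 1 to 5, against 385, 380.0, 186, 185 and 188 CPM in control libraries 1 to 5. It fell in libraries 1 and 2 (log2 -0.46, adjusted p = 2.79e-05), where both NAC values were below the control values, and its groups overlapped in libraries 3 to 5 (log2 -0.035, adjusted p = 0.637). For Cyp51 the log2 change differed between the sets by 0.43 ± 0.08 SE (adjusted p = 0.00103). Both enzymes of the same route thus passed with opposite signs in the same 4 libraries.

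Sc5d (chromosome 9), a sterol desaturase, had 79.1, 81.5, 78.6, 82.4 and 77.6 CPM in NAC libraries 1 to 5, against 94.3, 85.7, 70.5, 68.1 and 73.97 CPM in control libraries 1 to 5. NAC values were above the control values in libraries 3 to 5 and below them in libraries 1 and 2. Neither passed within its set (in libraries 3 to 5 log2 0.17, adjusted p = 0.0632, and in libraries 1 and 2 log2 -0.17, adjusted p = 0.0759), although that in libraries 3 to 5 passed when those were fitted alone (adjusted p = 0.00541). The difference between the sets passed (log2 0.33 ± 0.10 SE, adjusted p = 0.0164), except without control 1 (adjusted p 0.0914). Nsdhl, a sterol dehydrogenase, was at 27.9 to 47.3 CPM in NAC and 25.5 to 37.5 CPM in control libraries and rose in libraries 1 and 2 (log2 0.31, adjusted p = 0.0121; 0.117 when fitted alone), except without control 2 (adjusted p 0.0755). Lss, lanosterol synthase, was at 47.7 to 96.9 CPM in NAC and 47.9 to 97.1 CPM in control libraries. The sterol isomerase Ebp was at 31.1 to 52.1 CPM in NAC and 31.4 to 48.2 CPM in control libraries. Without leaving out single libraries, neither Lss nor Ebp passed in any comparison.

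Stard4, a carrier that moves cholesterol between membranes, had 117, 149, 91.4, 95.9 and 96.3 CPM in NAC libraries 1 to 5, against 163, 162, 95.2, 91.8 and 87.1 CPM in control libraries 1 to 5. In libraries 3 to 5 the groups overlapped (log2 0.049, adjusted p = 0.685); in libraries 1 and 2 it fell (log2 -0.29, adjusted p = 0.0178, but 0.105 when fitted alone). That fall no longer passed without NAC 1 or without control 1 or 2 or with scaling by library size alone (adjusted p 0.051 to 0.0986). The difference between the sets (log2 0.34 ± 0.12 SE, adjusted p = 0.042) did not pass without NAC 1, 3, 4 or 5 or without control 1, 2, 4 or 5 or with scaling by library size alone (adjusted p 0.0604 to 0.113).

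In the fatty acid branch, genes that passed within a library set were lower with NAC among the synthesis steps and higher among the desaturation and elongation steps. The 3 genes that supply carbon and build palmitate all had lower means with NAC: 2 of 3 fell in libraries 3 to 5 (Acaca and Fasn, against 14% of all genes tested) and 3 of 3 in libraries 1 and 2 (with Acly, against 28.3%). Their median log2 changes were -0.27 in libraries 3 to 5 and -0.62 in libraries 1 and 2. Of the 6 desaturases and elongases, 3 rose in libraries 3 to 5 (Scd1, Scd2 and Elovl6, against 15% of all genes tested) and 3 in libraries 1 and 2 (Scd2, Fads1 and Fads2, against 32.2%). None of the 6 fell, and their medians were 0.20 in libraries 3 to 5 and 0.40 in libraries 1 and 2.

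Fasn (chromosome 11), the fatty acid synthase, had 261, 273 and 246 CPM in NAC libraries 3 to 5, against 421, 411 and 414 CPM in control libraries 3 to 5. It had 441 and 498 CPM in NAC libraries 1 and 2, against 889.9 and 871 CPM in control libraries 1 and 2. Every NAC value was far below the control values of its set, but NAC libraries 1 and 2 were above control libraries 3 to 5. Fasn fell by 0.68 ± 0.06 SE on the log2 scale in libraries 3 to 5, or 1.6-fold lower (adjusted p = 9.18e-06). In libraries 1 and 2 it fell by 0.91 ± 0.08 SE, or 1.88-fold lower (adjusted p = 5.88e-07, and 0.00129 when fitted alone). The difference of 0.23 ± 0.10 SE did not pass (adjusted p = 0.0696). Over all libraries the adjusted p was 0.102 (log2 -0.81 ± 0.30 SE), and 0.00277 with the pairs (log2 -0.77).

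Acaca (chromosome 11), the acetyl-CoA carboxylase that makes malonyl-CoA for Fasn, had 127, 155, 95.7, 108 and 96.8 CPM in NAC libraries 1 to 5, against 229.8, 203, 119.8, 122 and 119.7 CPM in control libraries 1 to 5. NAC values were below the control values of their set. It fell by 0.27 on the log2 scale in libraries 3 to 5 (adjusted p = 0.0241, and 2.56e-06 when fitted alone). In libraries 1 and 2 it fell by 0.62 (adjusted p = 0.000102, and 0.00686 when fitted alone). For Acaca the log2 change differed between the sets by 0.36 ± 0.12 SE (adjusted p = 0.0344). The fall in libraries 3 to 5 did not pass without NAC 3 or 5 or without control 3, 4 or 5 or with scaling by library size alone (adjusted p 0.0608 to 0.106), nor the difference without NAC 4 or without control 1, 3, 4 or 5 (adjusted p 0.0532 to 0.169). Over all libraries the adjusted p was 0.2 (log2 -0.45), and 0.0346 with the pairs (log2 -0.41). A processed pseudogene matches 6118 bases of Acaca at 99.2% identity and could share its reads. Acly, the ATP-citrate lyase that supplies cytosolic acetyl-CoA to both branches, was at 264 to 354 CPM in NAC and 282 to 423 CPM in control libraries; it fell in libraries 1 and 2 (log2 -0.25, adjusted p = 0.0043; 0.111 when fitted alone), except without control 1 (adjusted p 0.0561). In libraries 3 to 5 it passed only when those were fitted alone (log2 -0.088, adjusted p = 0.0226).

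Scd2 (chromosome 19), a stearoyl-CoA desaturase that puts the first double bond into saturated fatty acids, was the gene that passed over all libraries. It had 776, 999.7, 718, 764 and 728 CPM in NAC libraries 1 to 5, against 587, 496, 489, 473 and 466 CPM in control libraries 1 to 5. The lowest NAC library was above the highest control library, and NAC 2 and control 1 each stood above the rest of their group. It averaged 797 ± 116 CPM in NAC and 502 ± 48.7 CPM in control libraries (SD, n = 5 each), 1.59-fold higher (log2 0.67 ± 0.11 SE, adjusted p = 0.00693). The rise was 0.63 ± 0.09 SE on the log2 scale in libraries 3 to 5 (adjusted p = 0.000259) and 0.71 ± 0.11 SE in libraries 1 and 2 (adjusted p = 9.32e-05). Between the sets it did not differ by the test (log2 -0.083 ± 0.14 SE, adjusted p = 0.658). Per length Scd2 was also the most abundant of the 34 genes, at 148 FPKM in NAC and 90.8 FPKM in control libraries.

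Scd1, its near relative and the main form in mouse liver, was far lower per length, at 2.26 FPKM in NAC and 1.63 FPKM in control libraries. It had 7.38, 7.64 and 6.62 CPM in NAC libraries 3 to 5, against 5.74, 4.97 and 3.98 CPM in control libraries 3 to 5. There it rose (log2 0.57, adjusted p = 0.0421, and 0.00316 when fitted alone), except without NAC 3, 4 or 5 or without control 4 or 5 (adjusted p 0.0643 to 0.17). For libraries 1 and 2 it did not pass (log2 0.35, adjusted p = 0.134). The transcripts match at 95.5% identity over 623 bases, so some Scd1 reads could come from Scd2.

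Elovl6 (chromosome 3), which lengthens palmitate to stearate, had 61.7, 61.6, 25.6, 26.9 and 23.9 CPM in NAC libraries 1 to 5, against 63.04, 59.98, 20.4, 18.3 and 21.7 CPM in control libraries 1 to 5. It rose in libraries 3 to 5 (log2 0.34, adjusted p = 0.00929, and 0.000914 when fitted alone), except without control 4 (adjusted p 0.055). Its groups overlapped in libraries 1 and 2 (log2 0.0023, adjusted p = 0.985). The difference (log2 0.34 ± 0.12 SE, adjusted p = 0.043) did not pass without NAC 3 or 4 or without control 1, 2, 3 or 4 (adjusted p 0.0597 to 0.137). A processed pseudogene matches 805 of its bases at 97.4% identity. Elovl5, an elongase of polyunsaturated fatty acids, was at 119 to 143 CPM in NAC and 108 to 138 CPM in control libraries. Without leaving out single libraries, Elovl5 passed in no comparison.

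Fads1 (chromosome 19), a desaturase of polyunsaturated fatty acids, had 56.2, 55.8, 44.02, 45.5 and 48.4 CPM in NAC libraries 1 to 5, against 40.5, 42.1, 41.97, 44.05 and 45.4 CPM in control libraries 1 to 5. It rose in libraries 1 and 2 (log2 0.44, adjusted p = 0.000436), with overlap in libraries 3 to 5 (log2 0.068, adjusted p = 0.477). For Fads1 the difference of -0.37 ± 0.11 SE between the sets (log2, adjusted p = 0.0128) passed except without control 1 (adjusted p 0.0531). Fads2 (chromosome 19), its partner enzyme, had 34.4, 38.98, 10.5, 6.65 and 10.1 CPM in NAC libraries 1 to 5, against 25.7, 17.5, 10.7, 7.997 and 9.80 CPM in control libraries 1 to 5. It rose in libraries 1 and 2 (log2 0.76 ± 0.20 SE, adjusted p = 0.00436), except without control 2 (adjusted p 0.0656), and overlapped in libraries 3 to 5 (log2 -0.049, adjusted p = 0.877). For Fads2 the difference of -0.81 ± 0.28 SE (adjusted p = 0.0304) did not pass without NAC 2 or 4 or without control 2, 3 or 5 (adjusted p 0.0659 to 0.136).

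Acsl4 (chromosome X), which activates arachidonic and other polyunsaturated fatty acids and is known for its part in ferroptosis, had 136, 163, 217, 232 and 216 CPM in NAC libraries 1 to 5, against 233, 227, 269, 260.2 and 252 CPM in control libraries 1 to 5. NAC values were below the control values of their set, although NAC 4 lay above control 2. It fell by 0.23 on the log2 scale in libraries 3 to 5 (adjusted p = 0.0215, and 4.89e-07 when fitted alone). In libraries 1 and 2 it fell by 0.62 (adjusted p = 3.37e-05, and 0.0053 when fitted alone). For Acsl4 the log2 change differed between the sets by 0.39 ± 0.11 SE (adjusted p = 0.011). The fall in libraries 3 to 5 did not pass without NAC 3 or 5 or without control 3 or 4 or with scaling by library size alone (adjusted p 0.0696 to 0.0888). Over all libraries the adjusted p was 0.117 (log2 -0.36), and 0.0367 with the pairs (log2 -0.39). Acsl3, another acyl-CoA synthetase, was at 24.6 to 33.7 CPM in NAC and 24.7 to 34.8 CPM in control libraries and passed in no comparison.

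**Figure D3:**
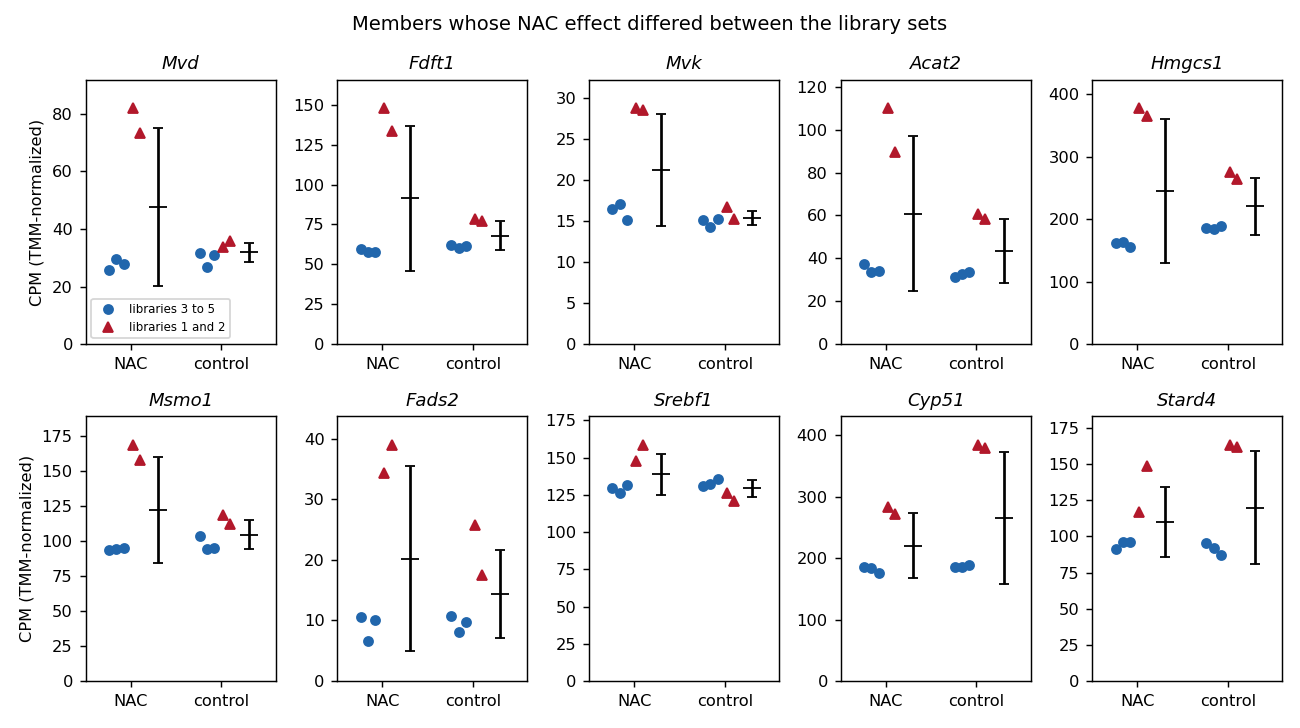
Level (CPM, linear axes that start at 0) in each library of 10 of the 17 genes whose NAC change differed between the library sets, NAC left of control; circles are libraries 3 to 5, triangles libraries 1 and 2, and bars the mean ± SD of 5 libraries. In libraries 1 and 2 Mvd stands at 82.01 and 73.3 CPM with NAC and 33.8 and 35.8 CPM without it, while in libraries 3 to 5 its groups overlap.

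The untreated cells also differed in this pathway between the library sets. Of the 34 genes, 29 were lower in control libraries 3 to 5 than in control libraries 1 and 2 without overlap (85.3%), against 37.1% of all genes tested. Another 3 were higher (Srebf1, Elovl5 and Acsl4), where all genes again gave 37.1%, and 2 overlapped (Mvk and Fads1). The ratio of the means, control libraries 3 to 5 over control libraries 1 and 2, had a median of 0.724 in the sterol branch and 0.698 in the fatty acid branch. It was 0.327 for Elovl6 (20.1 CPM in control libraries 3 to 5 and 61.5 CPM in control libraries 1 and 2), 0.472 for Fasn (415 CPM in control libraries 3 to 5 and 880.5 CPM in control libraries 1 and 2), 0.444 for Dhcr7 (19.2 CPM in control libraries 3 to 5 and 43.2 CPM in control libraries 1 and 2) and 0.488 for Cyp51 (186 CPM in control libraries 3 to 5 and 382 CPM in control libraries 1 and 2). The summed level of the 34 genes in libraries 3 to 5 was 3593 to 3696 CPM with NAC and 3602 to 3671 CPM without it. In libraries 1 and 2 it was 5025 to 5462 CPM with NAC and 5189 to 5390.5 CPM without it. So the sum of both branches together differed between the sets and overlapped between NAC and control libraries within each set. The sterol branch alone did not overlap in either set, and the direction differed. In libraries 3 to 5 it summed to 1786 to 1801 CPM with NAC and 1823 to 1859 CPM without it. In libraries 1 and 2 it summed to 2894 to 2956 CPM with NAC and 2724 to 2737 CPM without it. The sum of the fatty acid branch overlapped in both sets. Cd4 differs between the same libraries, as given above, and its part in these differences was not tested.

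Per length, in FPKM (reads scaled to the gene's length and the library's total), the highest of the 34 genes after Scd2 were Srebf2 (63.04 in NAC and 59.7 in control libraries), Acly (57.2 in NAC and 62.7 in control libraries) and Cyp51 (50.5 in NAC and 59.5 in control libraries). The lowest were Fdps (0.822 in NAC and 0.749 in control libraries), Scd1 and Tm7sf2 (4.13 in NAC and 2.18 in control libraries). Fasn, at 31.8 FPKM in NAC and 54.5 FPKM in control libraries, was the sixth from the top.

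**Figure D4:**
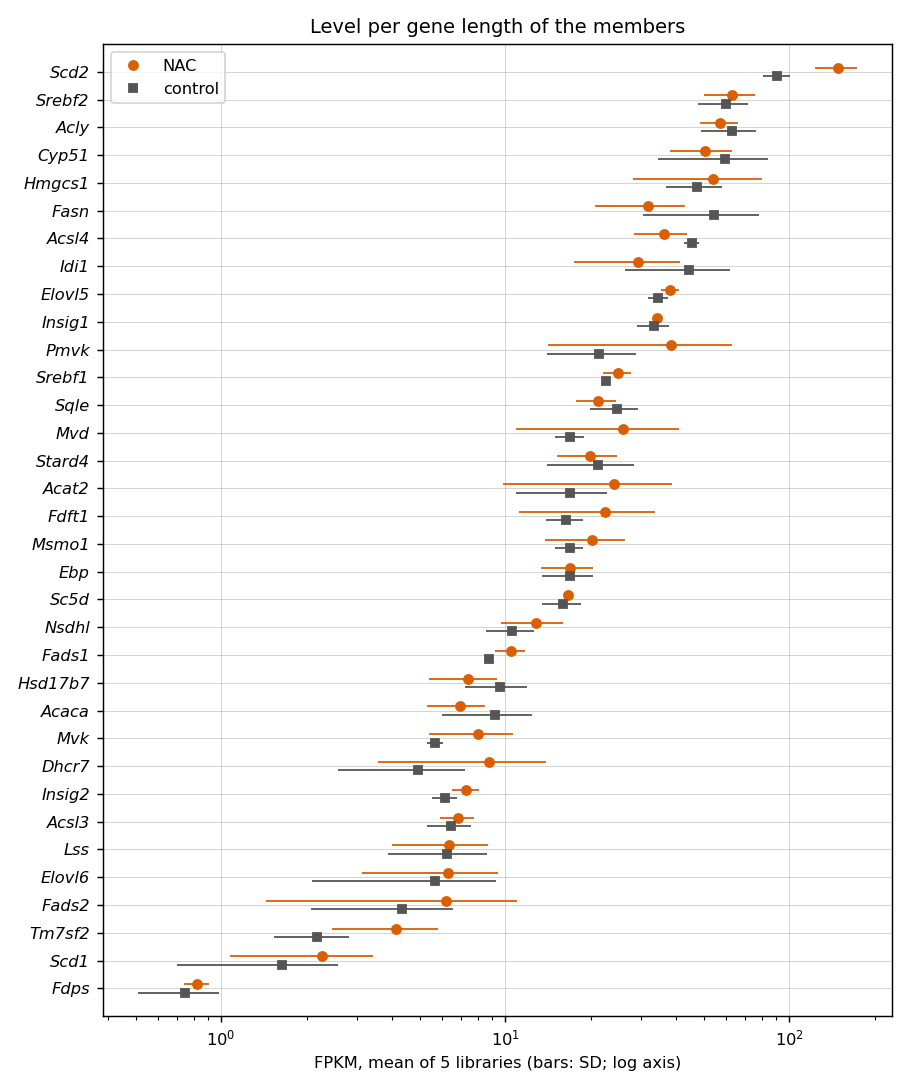
Mean level per length (FPKM, log axis) of the 34 genes over 5 NAC and 5 control libraries, ordered by level, with SD bars. The range runs from Scd2 (148 FPKM in NAC and 90.8 FPKM in control libraries) to Fdps (0.822 FPKM in NAC and 0.749 FPKM in control libraries).

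Genes that work beside the 34 were read from 5 further lists over all libraries. Of all genes tested 6.69% were higher and 4.88% lower there by edgeR's test, 30% had an unadjusted p under 0.05, and with the pairs 11.5% were higher and 8.22% lower; the counts below stand against these shares. Of the 8 genes that escort, cleave or degrade SREBP pathway proteins, none passed by edgeR's test (2 at an unadjusted p under 0.05). Among them Erlin1, a membrane protein of the endoplasmic reticulum, was at 32.1 to 81.9 CPM in NAC and 28.6 to 69.8 CPM in control libraries (log2 0.18, adjusted p = 0.758). Of 9 further isoprenoid and sterol enzymes 1 rose and 1 fell. Fntb, the beta subunit of farnesyltransferase, rose (31.4 to 36.2 CPM in NAC and 21.8 to 27.6 CPM in control libraries; log2 0.39 ± 0.09 SE, adjusted p = 0.024). Pdss1, which makes the ubiquinone side chain, fell (11.2 to 21.3 CPM in NAC and 27.2 to 31.97 CPM in control libraries; log2 -0.73 ± 0.17 SE, adjusted p = 0.0245). Leaving out 1 library at a time gave adjusted p-values of 0.0291 to 0.0607 for Fntb, above the threshold without NAC 2 or without control 3, and 0.0288 to 0.0555 for Pdss1, above it without control 1, 2 or 5.

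Of 12 genes of cholesterol efflux, esterification and movement 10 were tested and 1 rose: Soat1, which esterifies cholesterol (42.7 to 64.1 CPM in NAC and 30.8 to 43.4 CPM in control libraries; log2 0.45 ± 0.13 SE, adjusted p = 0.0483). That call is marginal, since leaving out any library but NAC 5 ended it (adjusted p 0.046 to 0.101 over the 10 libraries left out in turn), as did DESeq2's size factors (0.0519) and dropping the filter on low counts (0.0617). With the pairs 2 rose, Soat1 and the lysosomal lipase Lipa (log2 0.53, adjusted p = 0.0137). Of 20 further genes of fatty acid and lipid synthesis 18 were tested and 2 rose. Acss2, which makes acetyl-CoA from acetate, had 15.3, 16.1, 9.55, 6.85 and 8.18 CPM in NAC libraries 1 to 5, against 4.81, 5.15, 3.83, 4.79 and 5.27 CPM in control libraries 1 to 5, with every NAC library above every control library (log2 1.23 ± 0.25 SE, adjusted p = 0.0152). Lpin1, a phosphatidate phosphatase of glycerolipid synthesis, had 26.6, 40.8, 29.3, 26.9 and 31.1 CPM in NAC libraries 1 to 5, against 13.9, 11.9, 19.8, 19.8 and 19.5 CPM in control libraries 1 to 5, again without overlap (log2 0.87 ± 0.18 SE, adjusted p = 0.0156). The pairs added 1 that rose, Acacb (adjusted p = 0.0204), and 2 that fell, Elovl1 (adjusted p = 0.0475) and Hsd17b12 (adjusted p = 0.0451). Of 12 genes of fatty acid oxidation 11 were tested. Of these, 3 rose in libraries 3 to 5 (against 15% of all genes tested) and 9 in libraries 1 and 2 (against 32.2%), and none fell in either set. Over all libraries none passed by edgeR's test (5 at an unadjusted p under 0.05, against 30% of all genes tested). With the pairs 3 rose (against 11.5%): Cpt1a (adjusted p = 0.0116), Acadvl (0.0205) and Etfdh (0.0319). The most abundant per length were Acadl (112 to 172 CPM in NAC and 90.1 to 122 CPM in control libraries; log2 0.32, adjusted p = 0.147) and Acaa2 (53.4 to 104 CPM in NAC and 49.7 to 63.4 CPM in control libraries; log2 0.40, adjusted p = 0.199), both enzymes of the beta-oxidation spiral.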

How the data were processed

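The deposited table holds, per gene and library, a read count (counts) and an FPKM value, per the file headers. The authors' FPKM equalled count per length and library total within 0.0012%. GRCm38 and mm10 are named in the submitters' processing notes; the aligner, counter, annotation and use of strand are not named in any source used here. No gene in the table is placed by coordinates here, since its gene starts and ends matched the GENCODE M21 annotation of GRCm38 for 0 of the 34 members; chromosomes are as the table gives them. Counts were tested with edgeR 4.0.16 (R 4.3.3; robust quasi-likelihood, two-sided, TMM scaling, filterByExpr by group), with p-values adjusted over 11403 genes by Benjamini-Hochberg and a threshold of 0.05; the method was tested on simulated data. CPM are counts scaled to the library's reads in the 11403 tested genes times its TMM factor. Library sets 1 and 2 and 3 to 5 follow the library number; the set contrasts come from one fit with 4 cells of group and set. The common coefficient of variation was 26.6% with group alone, 16.4% with the library number as a block and 7.4% with the 4 cells. The numbers were taken as pairs as an alternative. Same-numbered NAC and control libraries deviated together from their group means (r 0.48 to 0.6 over genes), but other numbers of the same set did so as well (r 0.47 to 0.58). Only 3 of 10 libraries had their highest r with their own number, and r was -0.57 to -0.45 across sets. These values give no ground for pairs beyond the shared set. Named with the value in every library are members that passed over all libraries, in the difference between sets or with the pairs, and the 2 SREBP genes; from each neighbouring list, up to 2 rising and 2 falling genes, or the 2 most abundant, of which 1 is not reported here. Members, lists and the split were chosen with earlier results of these data known. Near copies were sought with blastn 2.17.0 among GENCODE M21 transcripts (95% identity over 200 bases). Alternatives were DESeq2 1.42.0 size factors and Wald test, scaling by library size alone, no filter, a replicate block, a set term, each library left out in turn and, added later, each set fitted alone.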

Additional observations from a re-analysis of the deposited data

Results flagged for a closer look

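The effect of NAC differed between libraries 3 to 5 and libraries 1 and 2 for 17 of the 34 genes, by the test of the difference in edgeR, and its values are log2 changes in libraries 3 to 5 minus those in libraries 1 and 2. The difference was negative for Mvd (-1.27), Fdft1 (-0.93), Fads2 (-0.81), Pmvk (-0.79), Mvk (-0.72), Hmgcs1 (-0.68), Acat2 (-0.64), Msmo1 (-0.55), Fads1 (-0.37) and Srebf1 (-0.35). It was positive for Cyp51 (0.43), Acsl4 (0.39), Acaca (0.36), Stard4 (0.34), Elovl6 (0.34), Sc5d (0.33) and Insig1 (0.26). All 5 of the mevalonate genes among the 17 had a negative difference, and both genes of palmitate synthesis and fatty acid activation among them, Acaca and Acsl4, a positive one. The remaining mevalonate genes, Idi1 (0.021) and Fdps (0.61), had positive differences that did not pass. The desaturation and elongation genes among the 17 split, with Fads1 and Fads2 negative and Elovl6 positive. The same libraries differ in Cd4 (0.766 to 2.76 CPM in libraries 3 to 5 and 465 to 521 CPM in libraries 1 and 2), whose part in the differences was not tested.

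Both groups of all 34 genes were searched for single libraries far from the rest of their group, and such libraries were found for 2 genes. Chance gives about 1 in 20 groups when the libraries of a group are alike, so flags this few are near that rate. Each group here also mixes the library sets, for which that rate need not hold. Hsd17b7 was at 53.02 CPM in NAC 2, against 36.2, 32.9, 29.6 and 33.9 CPM in NAC libraries 1, 3, 4 and 5. Scd2 was at 999.7 CPM in NAC 2, against 776, 718, 764 and 728 CPM in NAC libraries 1, 3, 4 and 5. In the controls Scd2 was at 587 CPM in control 1, against 496, 489, 473 and 466 CPM in control libraries 2 to 5.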

How the results depend on the processing

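Over all libraries 1 of the 34 genes passed, and it was 3 with the DESeq2 Wald test, 10 with the replicate block (the pairing of library numbers) and 15 with a term for library set; with any 1 library left out it was again 1. The branch medians, log2, then ran over 0.049 to 0.221 (sterol) and -0.009 to 0.131 (fatty acid). With 1 library left out, which leaves cells of 1 or 2 libraries that borrow the spread of the others, the count was 6 to 16 in libraries 3 to 5 (13 with all; 6 without control 4, 7 without NAC 3, 8 without NAC 5), 20 to 26 in libraries 1 and 2 (23 with all) and 11 to 19 for the difference (17 with all; 11 without control 1). Fitted alone, libraries 3 to 5 gave 16 (Insig1, Sc5d and Acly newly) and libraries 1 and 2 gave 17. No gene called within a set or in the difference changed sign. Over all libraries, of 544 values of single genes under an alternative, 486 kept direction and side of the threshold, 25 newly passed it and 33 changed sign, all of genes that did not pass: Insig1 (0.03 with library size alone, 0.005 with the replicate block, 0.004 with the set term and -0.043 to 0.045 with 1 library left out), Lss (0.021 with library size alone, -0.178 to 0.154 with 1 left out), and with 1 left out Srebf2 (-0.059 to 0.138), Fdps (-0.033 to 0.221), Hmgcs1 (-0.054 to 0.279), Ebp (-0.167 to 0.047), Sc5d (-0.021 to 0.099), Stard4 (-0.259 to 0.013), Elovl6 (-0.09 to 0.407) and Acsl3 (-0.009 to 0.131). Over all genes tested 1319 passed (763 higher and 556 lower), 881 higher and 396 lower with library size alone, 2287 in all with the Wald test, 2254 with the block, 4155 with the set term and 631 to 1405 with 1 library left out. The cause of these moves was not tested. At these depths 1 read was worth 0.0565 to 0.0766 CPM, so genes such as Fdps rest on few reads.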

Other observations

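Some of the neighbouring genes outside the 34 differed by library set as well; they were chosen after their values were seen. Soat2, which esterifies cholesterol, had 131, 126 and 138 CPM in NAC libraries 3 to 5, against 147, 143 and 143 CPM in control libraries 3 to 5. In the other set it had 15.7 and 13.5 CPM in NAC libraries 1 and 2, against 8.14 and 9.10 CPM in control libraries 1 and 2. Its NAC change was -0.13 on the log2 scale in libraries 3 to 5 (adjusted p = 0.136) and 0.76 in libraries 1 and 2 (adjusted p = 6.31e-05). For Soat2 the log2 change differed between the sets by -0.89 ± 0.13 SE (adjusted p = 0.00018). Abcg1, a cholesterol exporter and classical liver X receptor target, had 20.9, 19.4 and 20.8 CPM in NAC libraries 3 to 5, against 18.2, 17.3 and 14.7 CPM in control libraries 3 to 5. It had 15.7 and 28.6 CPM in NAC libraries 1 and 2, against 5.31 and 4.37 CPM in control libraries 1 and 2. Its log2 change was 0.29 in libraries 3 to 5 (adjusted p = 0.233) and 2.19 in libraries 1 and 2 (adjusted p = 6.8e-06). For Abcg1 the log2 change differed between the sets by -1.90 ± 0.30 SE (adjusted p = 0.00037). Acsl6, an acyl-CoA synthetase, changed in the other set, with 4.29, 5.003 and 2.77 CPM in NAC libraries 3 to 5, against 9.04, 10.5 and 8.57 CPM in control libraries 3 to 5 (log2 -1.23, adjusted p = 0.000405) and 10.2 and 10.4 CPM in NAC libraries 1 and 2, against 10.9 and 9.34 CPM in control libraries 1 and 2 (log2 0.025, adjusted p = 0.921). Its difference between the sets, log2 -1.25 ± 0.27 SE, adjusted p = 0.00278, had the same sign as those of Soat2 and Abcg1. Of the 8 genes of SREBP escort and cleavage, 1 rose and none fell in libraries 3 to 5 (against 15% of all genes tested higher and 14% lower), while none rose and 6 fell in libraries 1 and 2 (against 32.2% higher and 28.3% lower). The difference between the sets passed for 6, against 41.9% of all genes tested.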
